A study of Mus musculus with 55 samples.

Results

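Pre-mRNA levels were compared between mouse embryonic stem (ES) cells arrested in mitosis and the same cells 20 and 30 min after release, the earliest samples of the time course. The 7 libraries are all those of CCNA-GFP cells that were labelled mitotic (replicates 1, 2 and 3), 20 min (replicates 1 and 2) or 30 min (replicates 1 and 3), of 55 libraries in the series. CCNA-GFP cells are E14Tg2a ES cells of the 129/Ola strain with a cyclin A-GFP reporter of the cell cycle. All 3 groups were grown in serum and LIF, held for 4 h with 10 µM RO-3306, an inhibitor of CDK1, then for 4 h with 50 ng/ml nocodazole, which blocks microtubule assembly, and collected by shake-off, so that the mitotic controls had seen both agents too. The post-mitotic groups were then released from nocodazole for 20 or 30 min and none of the 3 groups received another agent. Each library at 20 or 30 min was set against the mitotic library with the same replicate number.

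Most transcription stops when chromosomes condense in mitosis, and it resumes as cells pass through anaphase and telophase into G1. Pre-mRNA still holds its introns and is short-lived, so its level follows transcription more closely than that of mature mRNA, which carries over from the cell cycle before. A short gene can yield a complete pre-mRNA within minutes of the first initiation, whereas elongation through a long gene takes far longer. The deposited values give, for 9911 genes, the abundance of unspliced transcripts in TPM. By definition this unit corrects for transcript length and scales each library to a common total. The low values fall on a step that differs between libraries, so whether the deposited values still share a total is unknown. TPM hold no read counts, so that sequencing depth and counting error are unknown, and differences were judged by the spread between libraries. The study's methods describe the replicates as independent.

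Among the genes that define ES cells, 6 of 7 were listed, and their summed level was 27.3 to 42.3 TPM in the mitotic libraries and 28.1 to 45.6 TPM at 20 and 30 min. Of the 7 primitive endoderm and 7 fibroblast markers 0 were listed. The 3 listed markers of 2-cell-like cells summed to 4.45 TPM in mitotic replicate 2 and 3.88 TPM in 20 min replicate 2, against 0.384 to 1.57 TPM in the other 5 libraries. The listed trophoblast markers (2 of 6) summed to 0.959 to 2.49 TPM and the neural or mesoderm markers (4 of 7) to 4.01 to 6.79 TPM. The libraries of replicate 2 stood apart from the other 5. They had the highest trophoblast sums (2.49 and 2.28 TPM, against 0.959 to 1.88 TPM) and the lowest ES sums (27.3 and 28.1 TPM, against 34.8 to 45.6 TPM), and their Spearman correlation across genes was 0.986 with each other and 0.918 to 0.939 with the rest, which correlated at 0.961 to 0.986. The part of these markers in the results was not tested. In bulk RNA, more cells that transcribe a gene and more transcription per cell cannot be told apart.

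Pre-mRNA was slightly higher than in mitosis across most genes, by a shift that differed in size between libraries and that scaling to the same summed TPM removed. On the log2(TPM + 1) scale the median difference over the 9911 genes was 0.07 at 20 min in replicate 1, 0.01 at 20 min in replicate 2, 0.15 at 30 min in replicate 1 and 0.05 at 30 min in replicate 3. The share of genes above their mitotic value was 85.2%, 59.0%, 91.9% and 74.5% in the same order. As deposited, the shift was smallest in replicate 2 and largest at 30 min in replicate 1. The low values of 20 min replicate 2 are multiples of 0.0217 TPM and those of its mitotic library of 0.0332 TPM, whereas in the other 3 pairs the steps differ by less, and with each library divided by its step this order reversed for 20 min replicate 2, which had the highest median (0.32, against 0.06 for 20 min replicate 1, 0.21 for 30 min replicate 1 and 0.10 for 30 min replicate 3). A gain of over 0.5 was found for 116 and 12 genes at 20 min, and for 505 and 92 genes at 30 min, while 4 to 24 genes per library lost as much. In replicate 1, the sole replicate with both time points, 75.7% of genes were higher at 20 min than in mitosis and higher again at 30 min. In all 4 libraries together 4154 genes (41.9%) were above the mitotic library of their replicate and 185 (1.87%) were below it. In the 3 libraries without replicate 2 these were 6499 genes (65.6%) and 318 genes (3.21%). The table was filtered on levels in asynchronous and post-mitotic cells and not in mitosis, so genes expressed in mitosis alone are not in it and the balance of higher to lower genes is tilted towards higher. An asynchronous mean of at most 0.5 TPM, with which a gene could enter through its post-mitotic levels only, was found for 1218 genes (12.3%) and for 5 of the 30 genes called at 30 min (Dnajb14, Pygm, Arl4d, Dll1 and Map1lc3a).

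The summed TPM of the listed genes was 14734, 13747 and 17245 in the mitotic libraries, 16698 and 14114 at 20 min, and 18748 and 18930 at 30 min. Each library exceeded its own mitotic library, by a ratio of 1.13 and 1.03 at 20 min and of 1.27 and 1.10 at 30 min. The sums are as deposited and were not divided by the steps of the low values. In replicate 2 these steps are 0.0217 TPM at 20 min and 0.0332 TPM in mitosis, so its ratio and difference depend on them. The groups overlapped, since mitotic replicate 3 lay above both libraries at 20 min. Between the 4 libraries (17123 ± 2247, SD) and the 3 mitotic ones (15242 ± 1803, SD) an unpaired exact permutation test of the sums gave a two-sided p of 0.343, where the smallest that this design allows is 0.0571. Taken by replicate, the mean of the libraries at 20 and 30 min exceeded mitosis in 3 of 3 replicates, by 2989, 367 and 1685 TPM, and an exact sign-flip test gave a two-sided p of 0.25, the smallest that 3 replicates allow. The median log2(TPM + 1) gave the same p in both tests. Scaling all libraries to the same sum brought the median difference of 30 min from mitosis from 0.08 to -0.02 in the fitted model, so each gene is to be read against the shift of all genes.

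At the level of single genes, 30 genes had risen by 30 min and 0 had fallen (limma, adjusted p under 0.05, replicate as a block). These 30 are 0.303% of the 9911 genes tested. At an unadjusted p under 0.05, 1131 genes were higher (11.4%) and 4 lower (0.0404%), and with all libraries scaled to the same sum 1020 were higher and 644 lower, with 31 and 0 called. Of the 30 genes, 12 were among those 31, Slbp, Rps21 and Cdk2 included, and the other 18 did not pass (adjusted p of 0.0559 to 0.126), among them Hist1h2br, Polg2, H2afz, Cd68, Atp1b1, Ckb, Id1 and Ddit4. All 30 had a positive log2 difference with the same sum, with a median of 0.678 against 0.6825 as deposited. These are the libraries by which the 30 were called, which favours a positive difference. As deposited, the fitted log2 differences of the 30 ran from 0.52 to 1.17 and their adjusted p from 0.0424 to 0.0497, all close to the threshold. At 20 min 0 genes were called in either direction by limma, with 244 higher (2.46%) and 9 lower (0.0908%) at an unadjusted p under 0.05, or 346 and 167 with the same sum. The mean of both time points gave 2 genes higher (0.0202%), Ckb and Slbp, and 0 lower, with 995 higher (10%) and 6 lower (0.0605%) at an unadjusted p under 0.05, or 882 and 567 with the same sum. Between 20 and 30 min limma called 0 genes, with 133 higher (1.34%) and 10 lower (0.101%) at 30 min at that p, or 269 and 92 with the same sum. A gene past the threshold at 30 min and not at 20 min is therefore not shown to differ between them. The number of genes called at 30 min rests on single libraries. It was 0 without all libraries of replicate 1, where 2 genes were called lower, 0 without 30 min replicate 1, where 1 was lower, 0 without mitotic replicate 1, 1 without mitotic replicate 3, 20 without mitotic replicate 2, 18 without all libraries of replicate 3, 309 without those of replicate 2, 49 without either library of 20 min and 105 without 30 min replicate 3.

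The promoters of 6 of these genes are shown first, as the stretch from which the first transcripts start. Slbp and Ckb were the genes called over the 4 libraries together, Polg2 and H2afz were among the 5 called genes with the largest fitted difference at 30 min, Cdk2 is the called gene of the G1/S list, and Dvl2 carries the most CACGTG of the 24 called genes with a RefSeq promoter. The 120 bases before the transcription start are from RefSeq on GRCm38.p6, written 5′ to 3′ on the strand of the gene. Capitals mark, on either strand, the CCAAT box (CCAAT), the TATA box (TATAAA), the GC box (GGGCGG), the E-box (CACGTG) and the core of the cAMP response element (TGACGT). The stretches lie at chr5:33652575-33652694 (minus strand) for Slbp, chr12:111672339-111672458 (minus strand) for Ckb, chr11:106779538-106779657 (minus strand) for Polg2, chr3:137864367-137864486 (plus strand) for H2afz (H2az1 in RefSeq), chr10:128705052-128705171 (minus strand) for Cdk2 and chr11:70000472-70000591 (plus strand) for Dvl2.
Slbp: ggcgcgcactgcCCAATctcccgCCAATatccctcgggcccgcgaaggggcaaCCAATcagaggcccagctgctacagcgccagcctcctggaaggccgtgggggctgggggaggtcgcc
Ckb: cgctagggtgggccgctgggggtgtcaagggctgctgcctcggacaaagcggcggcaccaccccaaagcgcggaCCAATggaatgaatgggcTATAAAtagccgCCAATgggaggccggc
Polg2: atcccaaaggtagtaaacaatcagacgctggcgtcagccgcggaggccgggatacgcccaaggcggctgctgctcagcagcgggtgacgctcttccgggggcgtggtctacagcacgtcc
H2afz: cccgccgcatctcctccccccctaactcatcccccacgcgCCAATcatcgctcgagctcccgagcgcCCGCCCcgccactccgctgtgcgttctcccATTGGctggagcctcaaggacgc
Cdk2: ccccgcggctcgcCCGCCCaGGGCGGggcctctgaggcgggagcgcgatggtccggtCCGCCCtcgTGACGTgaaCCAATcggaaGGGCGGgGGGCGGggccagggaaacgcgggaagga
Dvl2: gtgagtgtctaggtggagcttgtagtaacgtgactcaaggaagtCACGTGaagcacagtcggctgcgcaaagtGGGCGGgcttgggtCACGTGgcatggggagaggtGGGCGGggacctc
Slbp has 3 CCAAT in this stretch, Ckb has a TATAAA between 2 CCAAT, Cdk2 has 5 GGGCGG beside a TGACGT and a CCAAT, and Polg2 has none of these motifs.

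The largest fitted log2 difference at 30 min among the 30 called genes was that of Hist1h2br, named in the files as a histone H2B gene. Its pre-mRNA was at 1.53, 0.698 and 3.23 TPM in mitotic replicates 1, 2 and 3, at 4.58 and 1.35 TPM at 20 min in replicates 1 and 2, and at 5.44 and 6.66 TPM at 30 min in replicates 1 and 3. Both libraries of 30 min lay above all 3 mitotic ones, whereas 20 min replicate 2 lay inside the mitotic range and above its own mitotic library. The log2 difference at 30 min was 1.17 (SE 0.22, limma adjusted p = 0.0424), with a mean of 6.05 ± 0.863 TPM (SD, n = 2) against 1.82 ± 1.29 TPM (SD, n = 3), 3.32-fold. By this fold of the means, Dnajb14 (3.70), Pigyl (3.39) and Lat (3.36), which had lower levels, were above it. The gene spans 3788 bp on chromosome 13 of GRCm38 (21833743 to 21837530). RefSeq has a transcription start at the same base (21833743) under an H4 symbol, H4bc24. Histone genes have near-identical copies, so the reads of Hist1h2br could be shared between genes. The other 3 listed replication-dependent histone genes were not called, with differences of 0.48 for Hist1h2bp, 0.46 for Hist1h2bc and -0.10 for Hist1h2bq.

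Slbp encodes the stem-loop binding protein, which binds the 3′ end of replication-dependent histone mRNAs and is needed for their processing. It was at 1.53, 1.43 and 1.91 TPM in mitotic cells, at 3.49 and 2.19 TPM at 20 min and at 4.26 and 3.97 TPM at 30 min, again in replicates 1 and 2, then 1 and 3. All 4 post-mitotic libraries lay above all 3 mitotic ones. The log2 difference was 0.87 at 30 min (SE 0.15, limma adjusted p = 0.0424) and 0.76 over both time points (SE 0.12, adjusted p = 0.0244), and at 30 min the mean level was 2.53-fold that of mitosis. Slbp spans 17623 bp on chromosome 5 (33634952 to 33652574).

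Ckb, the brain-type creatine kinase, which buffers ATP through phosphocreatine, was the gene with the highest fitted difference at 20 min among the 30. Its level was 1.498, 0.996 and 1.18 TPM in mitosis, 2.93 and 2.65 TPM at 20 min and 2.92 and 2.96 TPM at 30 min. The levels at 20 and 30 min were close to each other and all above the mitotic libraries. The log2 difference over both time points was 0.80 (SE 0.13, limma adjusted p = 0.0244). For 20 min alone the difference was 0.81 (SE 0.16, adjusted p = 0.24), which did not pass. Ckb spans 2978 bp on chromosome 12 (111669361 to 111672338). Over both time points the adjusted p was 0.0643 for both Ckb and Slbp when the 7 libraries were fitted alone, and without 20 min replicate 1 it was 0.154 for Ckb and 0.252 for Slbp.

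Rps21, a protein of the small ribosomal subunit, stood at 1.57, 2.29 and 2.56 TPM in mitosis, 3.49 and 3.30 TPM at 20 min and 5.91 and 4.31 TPM at 30 min, where it had risen. Its log2 difference at 30 min was 0.93 (SE 0.17, limma adjusted p = 0.0424). The rise was larger in replicate 1 (1.43) than in replicate 3 (0.58). Processed copies of ribosomal protein genes are common in the mouse genome and could share its reads. Polg2, the accessory subunit of the mitochondrial DNA polymerase, was at 1.46, 1.20 and 1.55 TPM in mitosis, 3.28 and 1.97 TPM at 20 min, and 3.56 and 3.83 TPM at 30 min, a log2 difference of 0.92 at 30 min (SE 0.19, adjusted p = 0.0474). All 4 libraries were above the mitotic range.

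H2afz encodes H2A.Z, a histone variant found at the nucleosomes beside active promoters, whose transcripts are spliced and polyadenylated. It was at 1.11, 1.69 and 1.15 TPM in mitosis and at 4.01 and 2.85 TPM at 30 min (log2 difference 0.90, SE 0.19, limma adjusted p = 0.0489). The library of 20 min was at 2.31 TPM in replicate 1 and at 1.43 TPM in replicate 2, the latter below its own mitotic library. Cdk2, the kinase that pairs with cyclins E and A at the entry into S phase, had a like split at 20 min, with 1.75 TPM in replicate 1 and 0.694 TPM in replicate 2, the latter inside the mitotic range. Its mitotic levels were 0.941, 0.631 and 0.956 TPM and its levels at 30 min 2.54 and 2.24 TPM, a log2 difference of 0.77 (SE 0.15, adjusted p = 0.0449). Cd68, a glycoprotein of lysosomes and endosomes, went from 1.88, 1.56 and 2.08 TPM to 3.46 and 2.02 TPM at 20 min and 3.94 and 5.43 TPM at 30 min, and Atp1b1, the beta subunit of the sodium-potassium ATPase, from 1.43, 1.56 and 2.14 TPM to 3.21 and 1.78 TPM and then 4.86 and 3.94 TPM.

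The other 21 called genes had log2 differences of 0.52 to 0.76 at 30 min. They include Klhl11, a BTB-Kelch protein, Dvl2, a Dishevelled protein of Wnt signalling, Topors, a ubiquitin and SUMO ligase, and Dll1, a Notch ligand. Dll1 rose from 0.488, 0.365 and 0.562 TPM to 1.88 and 1.04 TPM at 30 min, and Dvl2 from 1.25, 1.33 and 1.32 TPM to 3.24 and 2.72 TPM. The chaperones of the DnaJ family Dnajb9 and Dnajb14, the proteasomal ubiquitin receptor Adrm1, the lariat debranching enzyme Dbr1, the mitochondrial complex I subunit Ndufa11 and the zinc transporter Slc39a7 were called as well. The remaining genes were Lat, Pygm, Arl4d, Ddit4, Id1, Sertad1, Gla, Uap1l1, 1700001P01Rik, Pigyl and Map1lc3a. Several of them are known from other tissues (Lat from T cells, Pygm from muscle), and their levels were low, with Lat at 0.233 to 0.506 TPM in mitosis and 1.37 and 1.22 TPM at 30 min. These genes, Cd68 and Atp1b1 are named because they were called, outside the rule for named genes.

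All 30 genes had both libraries of 30 min above all 3 mitotic libraries, as did 44.4% of the 9911 genes. In 17 of the 30 all 4 libraries lay above all mitotic ones, as in 4% of all genes. In 28 of 30 all 4 libraries were above the matching mitotic library, as in 41.9% of all genes. These 3 counts use the 30 min values by which the 30 were called and are given as a description. Ddit4, an inhibitor of mTORC1 that stress induces, was an exception, with 2.10 and 1.58 TPM at 20 min against 2.23 and 1.79 TPM in the same replicates in mitosis, and 4.36 and 2.50 TPM at 30 min against 2.23 and 1.35 TPM. H2afz in replicate 2 was the other. The gain at 30 min was larger in replicate 1 than in replicate 3 for 24 of the 30, as for 86.1% of all genes. By 30 min the mean level of 26 of the 30 had reached or passed their mean in asynchronous cells, against 22.8% of all genes, a count that the choice of genes high at 30 min favours, with Slbp at 4.11 ± 0.207 TPM (SD, n = 2) against 2.34 ± 0.669 TPM (SD, n = 3). H2afz was among those still below, at 3.43 ± 0.818 TPM (SD, n = 2) against 6.06 ± 1.93 TPM (SD, n = 3).

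**Figure D1:**
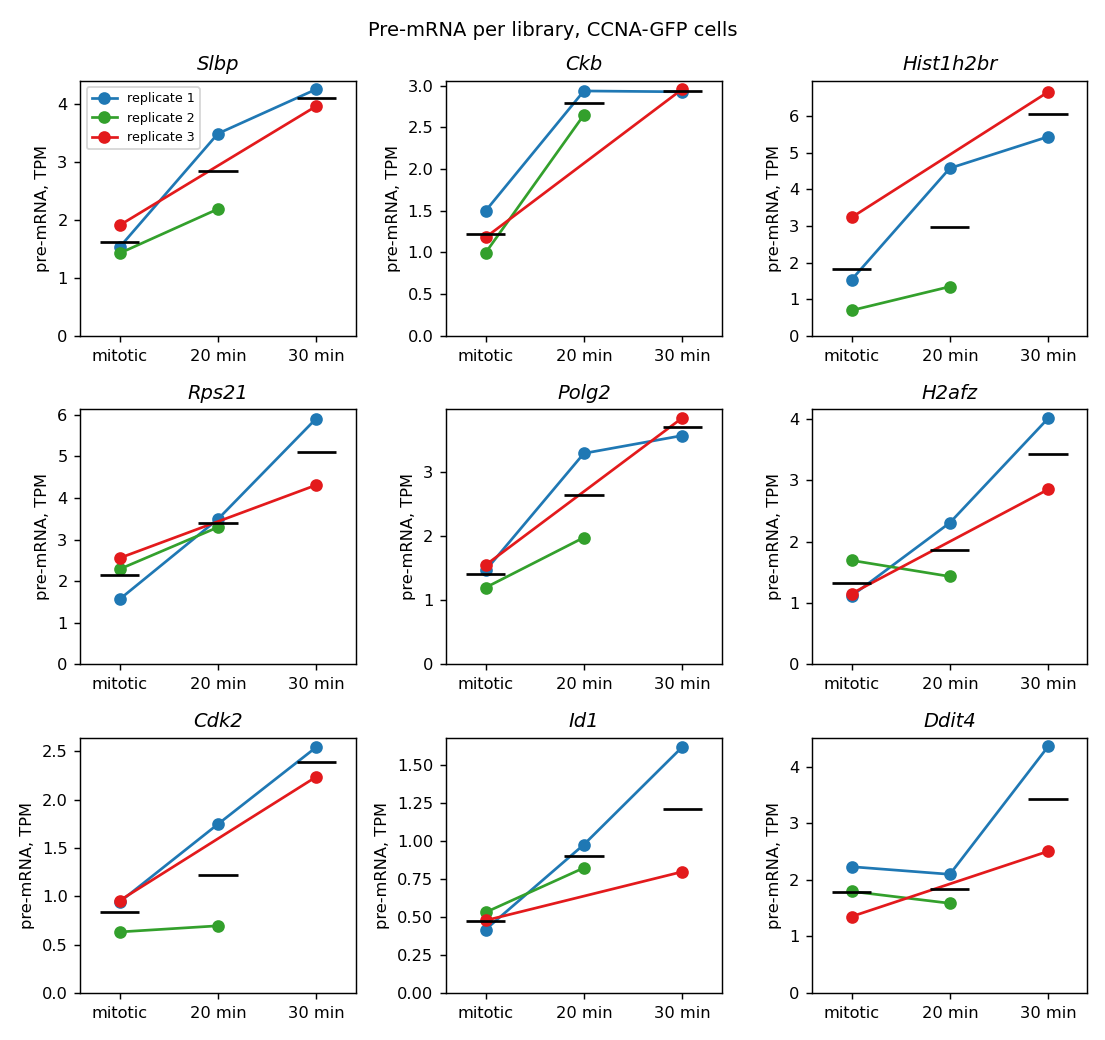
Pre-mRNA level in TPM of 9 genes called at 30 min, in each CCNA-GFP library of mitotic cells and of cells 20 and 30 min after release. Points are libraries, lines join libraries of the same replicate and black bars are group means. Slbp and Ckb lie above the mitotic libraries at both time points, whereas Ddit4 is higher at 30 min only.

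The called genes were short. Their median annotated span was 4785 bp (1069 to 48883 bp), against 22636 bp for the 9900 genes matched to Gencode vM21, and 28 of the 30 spanned under 20 kb, against 46.0% of all. Over the whole table the median difference was also smaller for longer genes, given here as a description. At 30 min in replicate 1 the median log2 difference was 0.23 for genes under 5 kb, 0.19 from 5 to 20 kb, 0.15 from 20 to 60 kb and 0.09 over 60 kb. At 30 min in replicate 3 it was 0.11, 0.08, 0.05 and 0.02 over the same classes, and at 20 min in replicate 1 it was 0.13, 0.10, 0.07 and 0.04. The libraries thus ordered the classes alike, other than 20 min replicate 2, where the medians were 0.02, 0.03, 0.02 and -0.00. The share of genes higher in all 4 libraries did not follow that order, at 33.4%, 45.8%, 45.9% and 33.6%. Among genes with a mitotic mean of 1 to 2 TPM the order of the medians was the same in those 3 libraries, with 0.31 under 5 kb and 0.12 over 60 kb at 30 min in replicate 1. In CTCF-AID cells without IAA at 20 min the medians from the shortest to the longest class were 0.11, 0.09, 0.09 and 0.11 in replicate 1 and 0.01, -0.01, -0.02 and -0.04 in replicate 2, so that replicate 1 did not show the order. With IAA they were 0.07, 0.03, -0.02 and -0.10, and 0.02, 0.00, -0.01 and -0.01.

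**Figure D2:**
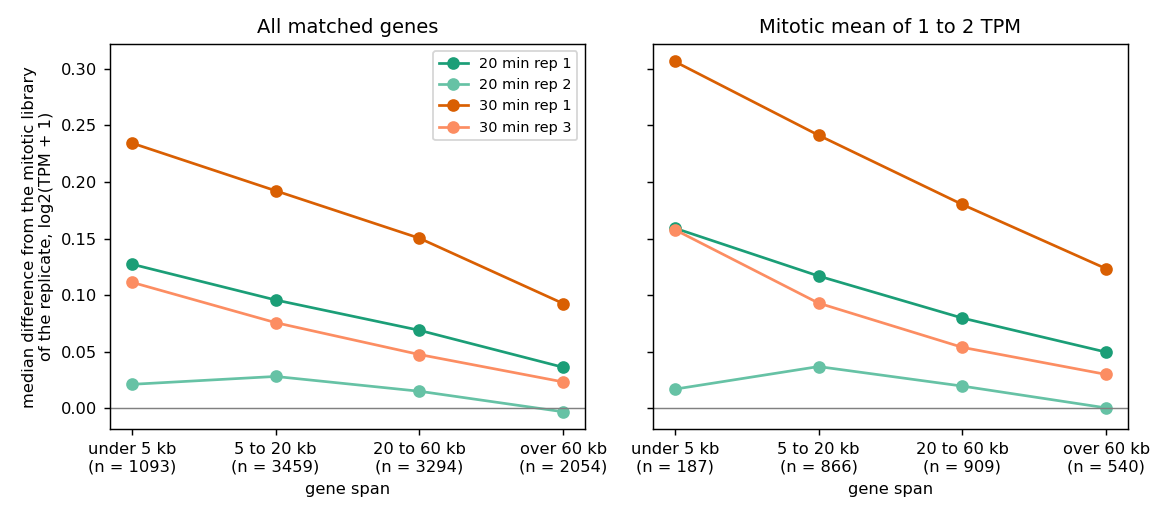
Median difference in log2(TPM + 1) from the mitotic library of the replicate, by class of annotated gene span, for each CCNA-GFP library at 20 and 30 min. The left panel holds all genes matched to the annotation and the right panel those with a mitotic mean of 1 to 2 TPM. Shorter genes have larger medians in 3 of the 4 libraries.

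The position of the called genes beside their neighbours was examined after their values were seen. Of the 30 genes, 8 (26.7%) start within 1 kb of the end of a gene on the same strand, against 4.67% of all genes and 7.74% of genes under 20 kb. They are Polg2 (818 bp from the end of Ddx5), Cd68 (783 bp from Eif4a1), Slbp (642 bp from Tmem129), Dvl2 (586 bp from Phf23), Topors (741 bp from Ndufb6), Lat (490 bp from Spns1), Dnajb14 (753 bp from H2afz) and Hist1h2br (513 bp from Gm44466). Of these upstream genes 7 are in the table and had log2 differences of 0.33 to 0.90 at 30 min. H2afz was called and the other 6 were not, such as Eif4a1, a helicase of translation initiation, at 0.67 (SE 0.17, limma adjusted p = 0.0963) and Ddx5, an RNA helicase, at 0.41 (SE 0.14, adjusted p = 0.22). Over the whole table, genes within 1 kb of such an end had a median difference of 0.11 at 30 min, and those over 10 kb away 0.07. Among genes under 20 kb, as 28 of the 30 are, these medians were 0.14 and 0.12. Whether transcripts that run past the end of the upstream gene add to these values was not tested. Of the 30, 5 overlap another annotated gene on their strand, which for 3 of them is a microRNA, such as Mir324 in Dvl2. The share of all genes with such an overlap was not counted, so this count is a description only.

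Promoter motifs were counted in the 250 bases before the start, on both strands, in the 24 of the 30 called genes and the 7360 of all 9911 genes that matched a RefSeq promoter. TGACGT stood in 7 of the 24 (29.2%) against 11.7% of all promoters, and CACGTG, which Myc and USF bind, in 5 (20.8%) against 9.24%. CCAAT stood in 12 (50%) against 38.3%, GGGCGG in 13 (54.2%) against 63.5%, TATAAA in 1 (4.17%), which is Ckb, against 5.26%, and the CArG box of serum response factor in 0 against 0.992%. Neighbouring matches can share letters, as the end of CACGTG can open a TGACGT. A match describes the sequence only, and with 24 promoters each gene is 4.17% of them.

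Among the genes of the lists by function, 5 of 445 (1.12%, against 0.303% of all genes) passed the test at 30 min. They were Id1, Cdk2, Ddit4, Hist1h2br and Rps21, each from a different list. With the same summed TPM Cdk2 and Rps21 passed as well. Id1 (0.64, limma adjusted p = 0.0647), Ddit4 (0.55, adjusted p = 0.104) and Hist1h2br (1.14, adjusted p = 0.126) did not. Immediate early genes, which are induced by growth signals without new protein synthesis, had the highest median among the lists of 10 or more genes. It was 0.47 at 30 min against 0.08 over all genes, and 17 of the 23 listed members (73.9%) were higher in all 4 libraries, against 41.9% of all genes. Per library the median of this list was 0.26 and 0.09 at 20 min and 0.54 and 0.20 at 30 min. The called member was Id1, a dominant-negative helix-loop-helix factor, at 0.418, 0.531 and 0.478 TPM in mitosis, 0.978 and 0.825 TPM at 20 min and 1.62 and 0.799 TPM at 30 min (log2 difference 0.63, SE 0.12, limma adjusted p = 0.0449). The transcription factors Myc, at 0.59 (SE 0.18, limma adjusted p = 0.157), and Klf4, at 0.57 (SE 0.17, adjusted p = 0.161), were above mitosis in all 4 libraries and did not pass. Of 38 immediate early genes 23 were in the table, whose filter uses post-mitotic levels. The lists also differ from all genes in span and level. The median span was 5162 bp for immediate early genes, against 22636 bp over all genes. Their median mitotic mean was 0.781 TPM and that of the SR, hnRNP and SF3 list 6.22 TPM, against 0.951 TPM. The part of span and level in the list values was not tested.

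Genes of the G1/S transition and of replication licensing had a median of 0.26 at 30 min, 20 of 31 (64.5%, against 41.9% of all genes) were higher in all 4 libraries, and the called member was Cdk2. E2f1, the transcription factor that drives many of these genes, had a difference of 0.17 (adjusted p = 0.674) and Rb1, its repressor, of 0.09 (adjusted p = 0.895). Targets of p53 had a median of 0.32, with 14 of 17 (82.4%) higher in all 4 libraries and 0 called. Their largest value was that of Btg2, an antiproliferative factor (0.65, SE 0.22, limma adjusted p = 0.222), and their smallest that of Sesn1 (0.07). Heat shock genes had a median of 0.28 (10 of 18, or 55.6%, higher in all 4), from 0.56 for the small heat shock protein Hspb1 to -0.03 for the mitochondrial chaperonin Hspd1, with 0 called. Splicing factors of the SR, hnRNP and SF3 groups had a median of 0.23 and the highest share of members higher in all 4 libraries among the lists of 10 or more, 26 of 30 (86.7%), with Srsf5 at 0.64 (adjusted p = 0.0927), Srsf10 at 0.07 and 0 called.

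The pluripotency genes had a median of 0.14 at 30 min, where 17 of 27 (63.0%, against 41.9% of all genes) were higher in all 4 libraries and limma called 0, against 0.303% of all genes. Pou5f1 (Oct4) was at 9.23, 4.95 and 11.1 TPM in mitosis, 10.2 and 4.56 TPM at 20 min and 11.3 and 11.8 TPM at 30 min, a difference of 0.22 (SE 0.15, limma adjusted p = 0.651). Both libraries of 30 min lay above the mitotic range, in which mitotic replicate 2 was far below the other 2, and those of 20 min lay on either side of their own mitotic library. Esrrb had 0.12 (adjusted p = 0.885), and the lowest of the list was Prdm14 at -0.06. Genes that act in mitosis had a median of 0.13 (16 of 32, or 50%, higher in all 4), from 0.54 for the kinesin Kif20a (adjusted p = 0.0983) to -0.03 for the APC/C activator Fzr1, with 0 of 32 called. Nuclear lamina and envelope genes, whose products rebuild the nucleus, had 0.11 (10 of 22, or 45.5%, higher in all 4) with Emd at 0.31 and Lemd2 at -0.05. Condensin and cohesin genes had 0.13 (11 of 17, or 64.7%) with Ncapd2 at 0.28 and Stag1 at -0.01.

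Pause release and elongation factors had a median of 0.19 (18 of 28, or 64.3%, higher in all 4 libraries, against 41.9% of all genes), with Brd2, a bromodomain reader of acetylated histones, at 0.59 (limma adjusted p = 0.0876) and Aff4, a scaffold of the super elongation complex, at 0.02. The Myc network had 0.18 (7 of 12, or 58.3%, higher in all 4) and ribosome biogenesis genes 0.18 as well (15 of 26, or 57.7%), with Mga at 0.01, Nop10 at 0.42 and Rrp1b at 0.00, and 0 called in both. Cytosolic ribosomal protein genes had 0.16, with 34 of 82 (41.5%) higher in all 4 libraries, a share near that of all genes, and Rps21 the one called. Tubulin genes, whose transcripts are unstable when free tubulin builds up, as under nocodazole, had 0.20 (4 of 12, or 33.3%, higher in all 4), from 0.54 for Tubb4b to -0.03 for Tubb3. Genes of actin, SRF and YAP had 0.15 (6 of 16, or 37.5%, higher in all 4), from 0.80 for Actg1 (SE 0.24, adjusted p = 0.164) to -0.07 for Cnn2. Feedback genes of FGF-ERK signalling had 0.15 (5 of 13, or 38.5%), from 0.54 for the ERK phosphatase Dusp6 to -0.06 for Etv4, and the integrated stress response list 0.11 (7 of 16, or 43.8%), with Ddit4 called at 0.66 (SE 0.14, adjusted p = 0.0497).

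MicroRNA and other small RNA genes had a median of 0.18 at 30 min, with medians per library of 0.40 in 30 min replicate 1 and of -0.00 to 0.05 in the other 3, and 4 of 15 (26.7%, against 41.9% of all genes) were higher in all 4 libraries. Mir20a, of the Mir17-92 cluster, was listed at 0, 0.299 and 0 TPM in mitosis, at 2.20 and 0 TPM at 20 min and at 2.92 and 0.932 TPM at 30 min, and was not called (limma adjusted p = 0.196). Mir34a, a p53 target, had -0.55. Mir20a, with a gene of 107 bp, overlaps Mir17hg on its strand, and Mir34a, of 102 bp, overlaps Gm37795. Their reads could be shared with these longer genes. SnoRNA host genes had a median of 0.09 and the lowest share of members higher in all 4 libraries among the lists of 10 or more, 1 of 12 (8.33%), with Gas5 at 0.50 and Snhg9 at -0.44, and 0 called.

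**Figure D3:**
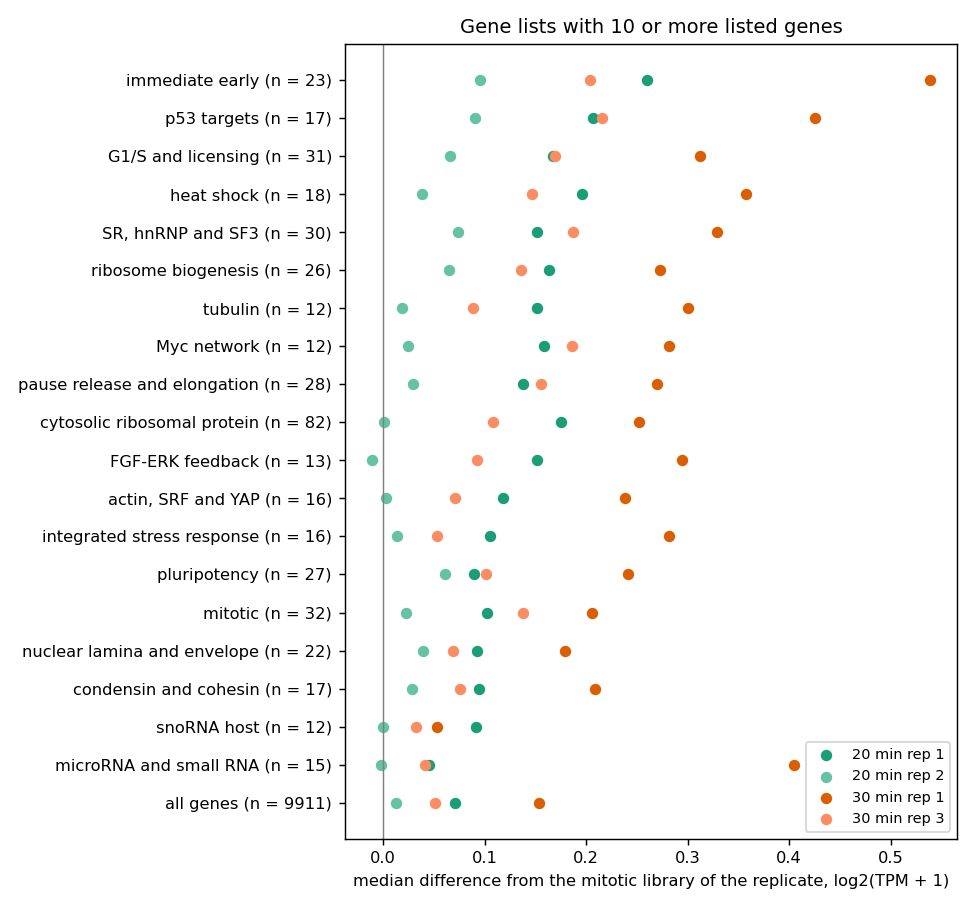
Median difference in log2(TPM + 1) from the mitotic library of the replicate over the members of each gene list with 10 or more genes in the table, with all genes in the bottom row. Each point is one library at 20 or 30 min. Immediate early genes have the highest list median in 3 of the 4 libraries (0.26, 0.09 and 0.54), and p53 targets in 30 min replicate 3 (0.22).

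No gene was called lower. Of the genes below their mitotic library in all 4 cases, the smallest p over both time points was that of Adam1a, a gene of a sperm metalloprotease. It was at 1.81, 1.69 and 1.41 TPM in mitosis and at 0.349 and 0.130 TPM at 20 min, but at 1.40 and 1.33 TPM at 30 min. Its log2 difference was -1.20 at 20 min (SE 0.21, limma adjusted p = 0.0988) and -0.03 at 30 min, with both libraries of 20 min below all 3 mitotic ones and both of 30 min just under the mitotic range. The difference of 1.17 between 30 and 20 min was not called (adjusted p = 0.702). Adam1a overlaps Mapkapk5 and 2 predicted genes on the same strand. The next by p were Olfr814, an olfactory receptor gene (-0.16 over both time points, adjusted p = 0.383), Mir298 (-0.87, adjusted p = 0.438), the kinase Cdk5 (-0.14, adjusted p = 0.529), Npl, a sialic acid lyase (-0.12, adjusted p = 0.541) and Rpl24, a protein of the large ribosomal subunit (-0.29, adjusted p = 0.567). Mir298, with a gene of 82 bp, was listed at 0 TPM at 20 min in replicate 1 and at 7.54 TPM at 30 min in replicate 3.

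The same comparison at 20 min was made in libraries that share no sample with those above. CTCF-AID cells are ES cells in which CTCF can be degraded by the auxin IAA. They are likewise derived from E14Tg2a, and were arrested and released in the same way. There were 3 mitotic libraries and 2 at 20 min without IAA, and as many with 0.5 mM IAA, which was added 2 h into nocodazole and kept during release, so that mitotic cells of that arm had it too. Their table was normalised apart from that of CCNA-GFP cells. In these cells too, 0 genes were called at 20 min by limma, without IAA (338 higher, 3.3%, and 13 lower at an unadjusted p under 0.05) and with IAA (151 higher, 1.48%, and 13 lower). With the same summed TPM in every library, the counts without IAA at that p were 362 higher and 216 lower. Of the 30 genes called at 30 min in CCNA-GFP cells, all listed in the CTCF-AID table, 23 were higher than mitosis in both replicates without IAA, as were 33.6% of the 9574 genes in both tables. With IAA 23 were higher in both as well, against 24.8%, and 2, Hist1h2br and Map1lc3a, were lower in both, against 33.1% of the shared genes. At an unadjusted p under 0.05, 16 of the 30 were higher without IAA (3.48% of all shared genes) and 13 with IAA (1.55%). After scaling to the same sum, 22 of the 30 were higher in both replicates without IAA, against 25.6% of the shared genes, and 24 with IAA, against 25.9%.

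Slbp was at 2.28, 1.49 and 2.28 TPM in mitotic CTCF-AID cells without IAA and at 4.999 and 2.60 TPM at 20 min, and with IAA at 1.75, 1.54 and 2.32 TPM and then 3.15 and 2.42 TPM. It was above all mitotic libraries of its arm in every library of 20 min, and above the matching one by 0.39 to 0.87 on the log2(TPM + 1) scale over CCNA-GFP and both CTCF-AID arms. Ckb was higher by 0.31 and 0.72 without IAA and by 0.47 and 0.55 with IAA, H2afz by 0.87 and 0.47 and by 0.37 and 0.51, and Cd68 by 0.59 and 0.40 and by 0.59 and 0.45. Hist1h2br went the other way in the cells with IAA, at 4.43, 2.30 and 4.68 TPM in mitosis and 1.93 and 1.14 TPM at 20 min, differences of -0.89 and -0.62, and it was split without IAA (0.20 and -0.27). Over the 9574 shared genes the mean difference at 20 and 30 min in CCNA-GFP cells and that at 20 min in CTCF-AID cells without IAA had a Pearson's r of 0.55 across genes (Spearman's rho 0.55), and with IAA of 0.48 (rho 0.45). Genes are not independent replicates, and expression levels and gene lengths are common to both tables.

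**Figure D4:**
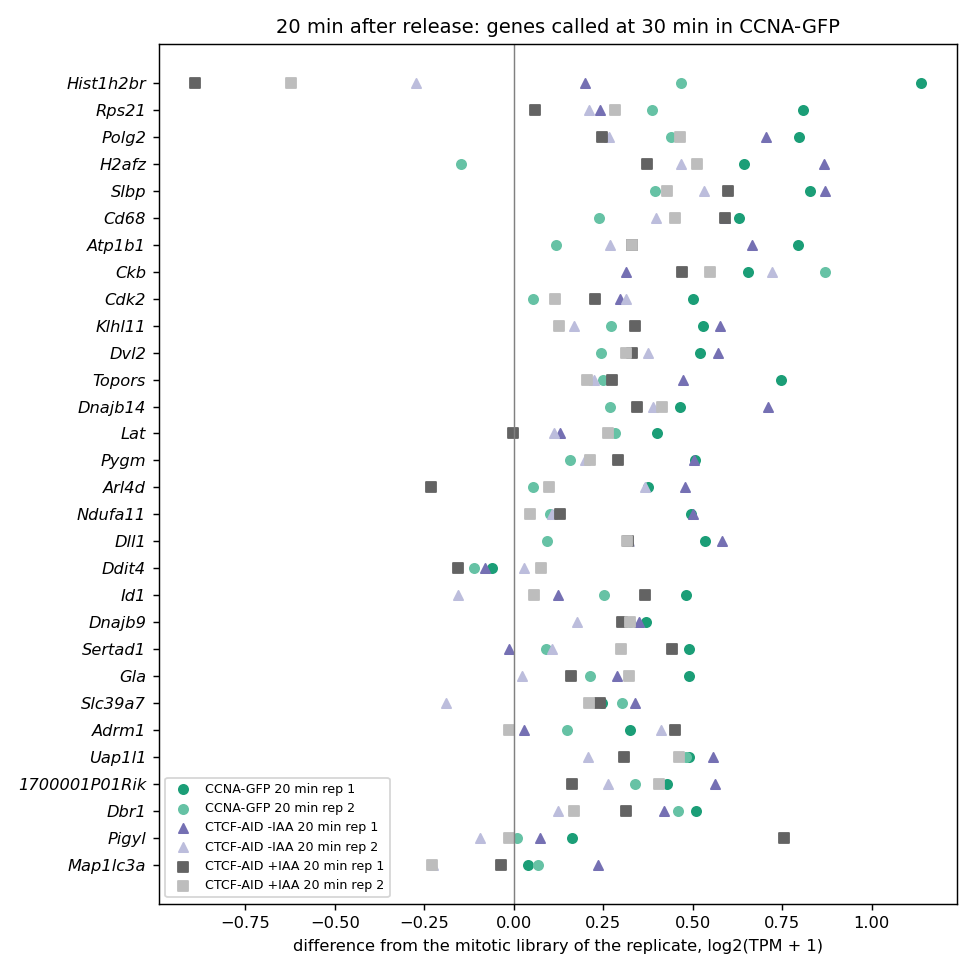
Difference in log2(TPM + 1) from the mitotic library of the replicate at 20 min after release, for the 30 genes called at 30 min in CCNA-GFP cells, in the order of their size at 30 min. Circles are CCNA-GFP cells, triangles CTCF-AID cells without IAA and squares CTCF-AID cells with IAA. Most points lie above 0, and Hist1h2br lies below 0 in both libraries with IAA.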

How the data were processed

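RNA-seq was analysed in 7 libraries of CCNA-GFP cells. Per the labels and the study's methods, the authors made ribo-depleted, stranded, paired-end libraries, mapped reads to mm10 using STAR, and let RSEM estimate each gene of Gencode vM12 both as spliced isoforms and as 1 unspliced (pre-mRNA) isoform. The authors deposited TPM of that isoform, for genes above 0.5 TPM in asynchronous or at least 2 post-mitotic samples. In every library low TPM fall on a regular step (0.0217 to 0.0349 TPM in these 7), as if values rounded at 0.01 had been multiplied by a factor of 2.17 to 3.49, which the sources used here do not explain.

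limma 3.58.1 in R 4.3.3 (lmFit, contrasts.fit, eBayes with trend) was run on log2(TPM + 1) of all 19 CCNA-GFP libraries, with stage and replicate as terms and Benjamini-Hochberg adjustment over 9911 genes. CTCF-AID arms, 18 libraries each, were fitted separately. Fits were tested on simulated data. Same-numbered libraries deviated together from the means of their stages (r from 0.207 to 0.783, 5 of 5 pairs above 0.1). Libraries of different numbers were not compared in this way, and 2 libraries of a stage deviate by mirrored values. The pairing therefore rests on the labels. By Spearman correlation mitotic replicate 1 was closer to 30 min replicate 3 (0.976) than to 30 min replicate 1 (0.968). Mitotic replicates 2 and 3 were closest to the later library of their own number (0.986 and 0.983). No library was a copy of another. Gm21304 and Gm6763 have identical values. Gencode vM21 (GRCm38, to which mm10 corresponds) gave the positions. Tables and plots were made in Python 3.11.15 (pandas 2.3.3, numpy 2.4.6, matplotlib 3.10.9, scipy 1.17.1).

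Genes named one by one are the 15 with the largest rise called over both time points (only 2 passed), the 6 lowest p among genes lower in all 4 libraries, the 5 largest called per time point, up to 4 called members of each list or else its largest and smallest, the 3 largest called differences of 30 from 20 min (none passed) and 7 genes of interest (Pou5f1, Klf4, Esrrb, E2f1, Cdk2, Rb1 and Myc). Motifs were to be counted in genes called over both time points, and those called at 30 min were used since only 2 passed. The libraries, genes and lists were chosen with earlier results of these data known. Alternatives were another pseudocount (0.1), scaling to the same sum, a filter at a mean of 1 TPM, the 7 libraries alone, no replicate block and leaving out replicates or libraries. Division of each library by its factor and an adjusted p under 0.1 were added after seeing the data, as were the test by replicate of the summed TPM and the scaling of the arm with IAA.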

Additional observations from a re-analysis of the deposited data

Results flagged for a closer look

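Among the genes named, 4 lay at 20 min on opposite sides of the mitotic level in CCNA-GFP cells and in an arm of CTCF-AID cells, in both replicates of each. These differences were not tested. The arm with IAA differs from CCNA-GFP cells in both cell line and treatment, while the arm without IAA is the same line untreated. Hist1h2br was higher by 1.14 and 0.47 in CCNA-GFP cells and lower in CTCF-AID cells with IAA (-0.89 and -0.62), a difference of means of -1.56 on the log2(TPM + 1) scale, while it was split without IAA (0.20 and -0.27). The other 3 were small: Map1lc3a with IAA (-0.19), Hspd1 without IAA (-0.15) and Aff4 with IAA (-0.13). Without IAA Map1lc3a (0.24 and -0.22) and Aff4 (0.04 and -0.03) were split between replicates too. The groups had 2 or 3 libraries each, too few for a test of outlying samples.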

How the results depend on the processing

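The count of genes called depends on the setting, and of the 30 genes called at 30 min between 0 and 30 passed under the 16 alternatives. With the same summed TPM 31 genes were called, 12 of them among the 30. Every one of the 30 that an alternative tested had a positive difference there. The median of these differences ran from 0.54 (without 30 min replicate 1) to 1.16 (pseudocount of 0.1). The alternatives reuse libraries by which the 30 were called, which favours a positive difference, so the signs are a description only. The cause of the changes in the count was not tested. For 30 min against mitosis, 246 genes were higher with a pseudocount of 0.1, 187 after removing genes below a mean of 1 TPM, 227 with the 7 libraries alone, 0 with no replicate block and 113 at an adjusted p under 0.1, and 360 were higher and 2 lower with each library divided by its own factor. For both time points together the counts were 149, 100 (and 1 lower), 0, 0, 34 and 485 (and 2 lower) in the same order, and 35 with the same summed TPM. At 20 min 2 were higher and 1 lower after that filter, 12 and 2 with the factor removed, and 1 was lower at an adjusted p under 0.1. For 30 against 20 min, 1 was higher after it and 1 with the factor removed. Without the replicate block 0 were called in any contrast, also in CTCF-AID cells without IAA.

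Leaving out a replicate or library gave 0 to 47 genes higher and 0 to 8 lower at 20 min, 0 to 309 and 0 to 10 at 30 min, 0 to 211 and 0 to 7 over both, 0 to 9 and 0 to 8 for 30 against 20 min, and 0 to 1 higher in CTCF-AID cells without IAA. The highest counts were without replicate 2, which leaves 20 min with 1 library that is assumed to vary like the other groups, as wherever 1 library is left. Medians per library cannot be recomputed without a library, a block or other libraries, since each uses its own pair. The median of 20 min replicate 1 was 0.14 with a pseudocount of 0.1 and -0.0169 with the same sum, that of 30 min replicate 1 was 0.28 and -0.0167, and that of 20 min replicate 2 was 0.32 with the factor removed. The gap between genes under 5 kb and over 60 kb was 0.13 at 20 min and 0.25 at 30 min with a pseudocount of 0.1, from 0.06 and 0.12.

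Some genes that were not called changed sign at 30 min. With the same sum Aff4 was at -0.15, Mga at -0.16, Rb1 at -0.034, Rrp1b at -0.19 and Srsf10 at -0.12. With no replicate block Etv4 was at 0.19, Fzr1 at 0.11, Lemd2 at 0.013, Stag1 at 0.00019 and Tubb3 at 0.042. With the factor removed Cnn2 was at 0.023, Etv4 at 0.054, Fzr1 at 0.12, Hspd1 at 0.16, Lemd2 at 0.063, Stag1 at 0.12 and Tubb3 at 0.10. With the 7 libraries alone Fzr1 was at 0.054, Hspd1 at 0.0027 and Stag1 at 0.023. Leaving out a replicate or library gave -0.067 to 0.10 for Aff4, -0.081 to 0.27 for Esrrb, -0.21 to 0.078 for Etv4, -0.19 to 0.081 for Fzr1, -0.060 to 0.058 for Mga, -1.54 to 0.18 for Mir34a, -0.14 to 0.011 for Prdm14, -0.10 to 0.10 for Rrp1b, -0.034 to 0.17 for Sesn1, -0.012 to 0.15 for Srsf10, -0.081 to 0.037 for Stag1 and -0.105 to 0.028 for Tubb3. Depth is unknown, which limits the low levels most.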
